A study of Mus musculus with 6 samples.

Results

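The genes described here code for chromatin remodellers of the SWI/SNF, CHD, ISWI and related SNF2 families and for proteins with an ARID DNA-binding domain. They were selected by a rule on names alone, set with earlier results of these data known. It took probes of a mouse 1-colour Agilent array by the start of the gene name. These starts were Smarca to Smarce, Smarcad, Chd or Arid and a number, Ino80, Baz1 or Baz2, Hells, Atrx or Actl6. Of 41174 probes, 105 met that rule, and they stood for 40 of 27670 genes. All 40 genes had a probe that entered the test, among 19977 genes tested in all.

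Total RNA of 6 cultures was measured, 3 of mouse embryonic stem (mES) cells and 3 of epiblast stem cells (EpiSC), and the 2 cell types were compared. The mES cells were of lines ESF122, ESF175/1 and ESF58 (the title and the source of this last sample give different subline numbers) and were cultured with the cytokine LIF. The EpiSC were of lines EpiSC-5 and EpiSC-7, with FGF2 in place of LIF, and EpiSC-7 was sampled at passages 20 and 25, so the 3 EpiSC arrays came from 2 lines. All 6 cultures grew on irradiated mouse embryonic fibroblasts in a DMEM medium with serum replacement, so cell type and growth factor cannot be told apart, and each RNA could hold feeder RNA. The labels used here give no strain, sex or embryo stage, and no passage for the mES lines. The series describes the 3 samples of each cell type as biological replicates.

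Chromatin remodellers use ATP to slide, eject or exchange nucleosomes. SWI/SNF complexes carry 1 of 2 alternative ATPases, Smarca2 or Smarca4, with core and accessory subunits, and mouse ES cells are known for a form built on Smarca4 and Smarcc1. Most CHD proteins carry chromodomains that bind histone tails. ISWI ATPases space nucleosomes with the help of BAZ subunits, and ARID proteins bind DNA either inside SWI/SNF or in other regulators.

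Signals are given as scaled signal, the processed signal of a probe after each array was set to the same 75th percentile, in the units of a common percentile of 725. The signal of a probe depends on its own sequence, so the level of a probe was compared between arrays and not with that of another probe. Fold changes are on the log2 scale as EpiSC minus mES, with the standard error of limma's fit over all genes (n = 3 arrays in each group), and a gene was called where limma's Benjamini-Hochberg adjusted p was under 0.05. Raw median signals lay between 74.6 and 126 over the 6 arrays, 66.3% to 75.4% of probes were well above background, and 0 spots were saturated.

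The labels were checked against markers of each cell type. The marker lists were chosen with earlier results of these data known, so the check is not independent. All 9 markers of naive ES cells were lower in EpiSC and all 8 of postimplantation epiblast were higher, while 0 of 5 pluripotency genes shared by both cell types passed limma's adjusted threshold and 1 had an unadjusted p under 0.05. Of 14 measured fibroblast markers, 0 passed and 0 had an unadjusted p under 0.05, but their summed signal ran from 12313 to 75654 over the mES arrays and from 8725 to 88147 over the EpiSC arrays. It was lowest on mES replicate 2 and EpiSC replicate 3, and results that depend on these arrays are given without them below (on mES replicate 3 the sum lacks Col1a2, whose spot was an outlier there). Of 8 measured markers of primitive and visceral endoderm, 4 were higher in EpiSC and 0 lower (1 lower at an unadjusted p under 0.05), with a summed signal of 14561 to 35608 against 783 to 848, most of it from Foxa2, and their part in the differences below was not tested. Of 8 neural markers, Map2 was higher and Tubb3 lower (3 higher and 2 lower at an unadjusted p under 0.05 in limma). Their summed signal was 4655 to 6393 in mES cells and 6434 to 12596 in EpiSC, apart by a narrow margin only. Nes and Stmn2, which were not called, gave 6869 and 4334 of the highest sum, on EpiSC replicate 3. The part of such cells was not tested either. Each of the 4 slides held arrays of 1 cell type only, so slide and cell type cannot be told apart.

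Promoter sequences are shown for the 5 genes called with a difference of at least 2-fold that have exactly 1 entry in RefSeq's promoter table, to show what the genes that moved have at their starts. Each runs from 250 bases before to 50 bases after the annotated start on GRCm38.p6, 5′ to 3′ on the gene's strand. Capitals mark matches, on either strand, to any of 6 motifs, and no match shown overlaps another. The CCAAT box was searched as CCAAT and the GC box as GGGCGG. The TATA box was searched as TATAAA and the E-box as CACGTG. The letters of the E2F site were TTTGGCGC, and those of the octamer, which binds POU factors, were ATTTGCAT. Smarca2 and Chd6 were higher in EpiSC, and Baz2a, Hells and Arid5a were lower.
Smarca2, chr19:26604910-26605209, strand +: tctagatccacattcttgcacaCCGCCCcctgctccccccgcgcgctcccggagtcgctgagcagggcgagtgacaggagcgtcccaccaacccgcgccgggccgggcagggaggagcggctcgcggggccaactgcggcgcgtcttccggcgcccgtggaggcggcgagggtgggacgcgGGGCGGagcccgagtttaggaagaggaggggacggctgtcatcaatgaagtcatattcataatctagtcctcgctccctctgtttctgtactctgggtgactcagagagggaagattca
Chd6, chr2:161109037-161109336, strand -: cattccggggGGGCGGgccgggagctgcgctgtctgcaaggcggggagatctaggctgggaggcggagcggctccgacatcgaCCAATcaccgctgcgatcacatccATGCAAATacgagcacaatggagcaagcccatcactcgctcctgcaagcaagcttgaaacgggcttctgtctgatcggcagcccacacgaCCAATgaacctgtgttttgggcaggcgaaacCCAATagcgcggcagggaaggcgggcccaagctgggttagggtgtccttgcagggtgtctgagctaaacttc
Baz2a, chr10:128092533-128092832, strand +: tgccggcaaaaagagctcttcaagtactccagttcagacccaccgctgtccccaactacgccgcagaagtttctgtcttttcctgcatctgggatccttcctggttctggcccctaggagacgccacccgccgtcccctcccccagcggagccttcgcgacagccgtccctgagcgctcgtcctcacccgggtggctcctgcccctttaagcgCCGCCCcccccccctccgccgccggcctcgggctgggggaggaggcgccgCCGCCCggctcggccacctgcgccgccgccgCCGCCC
Hells, chr19:38930740-38931039, strand +: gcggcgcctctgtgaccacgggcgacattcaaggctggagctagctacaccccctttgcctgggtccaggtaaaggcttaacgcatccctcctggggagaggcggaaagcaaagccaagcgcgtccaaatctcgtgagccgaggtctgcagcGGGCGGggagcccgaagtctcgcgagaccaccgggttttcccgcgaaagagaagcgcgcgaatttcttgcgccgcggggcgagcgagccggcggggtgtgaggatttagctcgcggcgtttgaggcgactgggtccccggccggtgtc
Arid5a, chr1:36307483-36307782, strand +: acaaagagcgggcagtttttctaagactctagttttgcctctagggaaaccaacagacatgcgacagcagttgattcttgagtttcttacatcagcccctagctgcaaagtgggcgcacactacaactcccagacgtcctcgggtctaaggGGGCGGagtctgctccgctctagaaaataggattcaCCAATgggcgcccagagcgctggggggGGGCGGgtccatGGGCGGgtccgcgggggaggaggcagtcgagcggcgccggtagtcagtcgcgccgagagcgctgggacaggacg

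All 5 promoters were rich in CpG, with 29 in Smarca2, 20 in Chd6, 30 in Baz2a, 34 in Hells and 22 in Arid5a. The Chd6 window held 3 CCAAT boxes, 1 GC box and 1 octamer match, and the Smarca2 window held 2 GC boxes only. Among the lower genes, Baz2a had 3 GC boxes, Hells had 1, and Arid5a had 3 with 1 CCAAT box. GC boxes thus stood in promoters of genes of both directions. RefSeq's table held 39 promoters for 32 of the 40 genes, with a median of 24 CpG against 7 over all 32851 promoters of that length. A GC box was in 74.4% of the 39 and in 35.7% of all. The promoters were not matched for CpG or for expression, so whether this share is particular to these genes was not tested. A CCAAT box was in 41.0% against 37.4%, a TATA box in 10.3% against 13.6% and an octamer in 2.56% against 1.74%. Neither the E-box nor the E2F letters were found in the 39, against 7.15% and 0.514% of all.

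Of the 40 remodeller genes, 12 differed between EpiSC and mES cells, 6 of them higher and 6 lower in EpiSC. Over all genes tested, 26.6% were called, 11.4% higher and 15.2% lower, so the 30.0% of the remodeller genes lay near the background share. Their median log2 fold change was 0.08 against -0.14 over all genes, and the median size of the change, without its sign, was 0.48 against 0.51. The 3 arrays of one cell type lay entirely above those of the other for 22 genes, 11 in each direction, or 55.0% against 48.9% of all genes (19.2% with EpiSC higher and 29.6% with EpiSC lower). Of the 40 genes, 10 were called with a difference of at least 2-fold, or 25.0% against 18.3% of all genes. In bulk RNA, fewer cells of a type and less RNA per cell cannot be told apart.

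**Figure D1:**
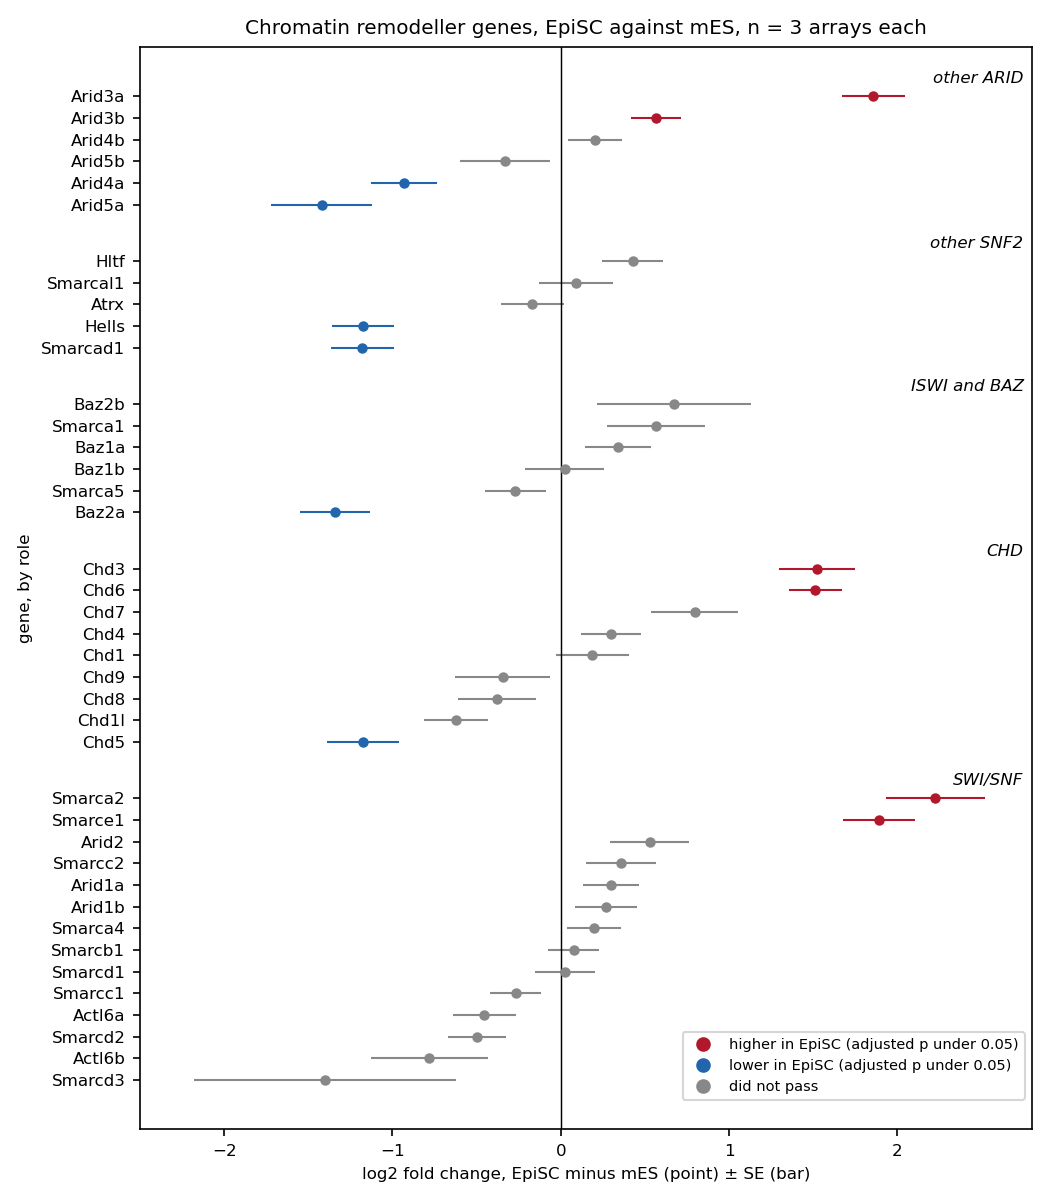
Log2 fold change of each of the 40 genes, EpiSC minus mES, with its standard error as a bar (n = 3 arrays in each group) and genes grouped by role. The 6 genes in red passed the threshold as higher, from 0.57 to 2.23, the 6 in blue as lower, from -1.42 to -0.93, and the 28 in grey did not pass.

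In the SWI/SNF group, 2 of 14 genes were higher in EpiSC and 0 were lower (limma, with 2 lower at an unadjusted p under 0.05), and the group's median log2 fold change was 0.14. Smarca2, the BRM ATPase, had scaled signals of 80.9, 44.9 and 93.2 on mES replicates 1, 2 and 3 and of 341, 339 and 299 on EpiSC replicates 1, 2 and 3. Every EpiSC array lay far above every mES array, and the EpiSC arrays were close to each other. The difference was 2.23 ± 0.30 on the log2 scale, or 4.68-fold (limma adjusted p = 0.00401). Smarce1, the HMG-box subunit BAF57, gave 4062, 4058 and 3577 in mES cells and 14318, 11552 and 18159 in EpiSC. The groups were well apart, with a log2 fold change of 1.89 ± 0.21, or 3.71-fold (limma adjusted p = 0.00241).

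Both genes have another entering probe that did not follow. The other Smarca2 probe gave 35.8, 25.1 and 20.8 in mES cells and 34.2, 42 and 24.4 in EpiSC, groups that overlapped, with a log2 fold change of 0.30 ± 0.29 (limma adjusted p = 0.467 over all probes), and a further probe did not rise well above background anywhere. The other Smarce1 probe gave 970, 1064 and 1075 against 1453, 1312 and 1480, with every EpiSC array above every mES array, but a log2 fold change of only 0.45 ± 0.16 (limma adjusted p = 0.0809). With the mean of all entering probes in place of the brightest, the log2 fold change was 1.26 for Smarca2 and 1.17 for Smarce1, and both were still called.

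The other ATPase and the core subunit Smarcb1 did not pass the test. Smarca4 (BRG1) gave 12031, 13744 and 12573 in mES cells and 13584, 14509 and 15959 in EpiSC, overlapping ranges with a log2 fold change of 0.20 ± 0.16 (limma adjusted p = 0.38). Smarcb1 gave 15746, 13687 and 15265 against 15362, 15403 and 16291, and its log2 fold change was 0.08 ± 0.15 (limma adjusted p = 0.734). The groups of both genes overlapped, and the sign of each difference turned in 1 alternative setting. Another Smarca4 probe gave 14123, 13848 and 10435 in mES cells and 12610, 12062 and 9701 in EpiSC. Its log2 fold change was -0.16 ± 0.21 (limma adjusted p = 0.598 over all probes). A further Smarca4 probe stood at 0.12 ± 0.17. The scaffold subunit Smarcc1 (BAF155) had a log2 fold change of -0.27 ± 0.15 (limma adjusted p = 0.229), with every EpiSC array below every mES array. Its alternative Smarcc2 (BAF170) had 0.36 ± 0.21 (limma adjusted p = 0.237). Their other entering probes stood at -0.20 ± 0.24 for Smarcc1 and -0.21 ± 0.28 for Smarcc2, and neither was called.

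The 3 Smarcd (BAF60) paralogs also did not pass. Smarcd1 stood at 0.03 ± 0.18. Smarcd2 gave 3093, 4016 and 3764 in mES cells and 2667, 2538 and 2445 in EpiSC, all EpiSC arrays lower, with a log2 fold change of -0.50 ± 0.17 that missed the threshold (limma adjusted p = 0.0746). Smarcd3, the paralog known from heart and muscle development, had the widest spread within a group: 168, 251 and 1503 in mES cells against 134, 157 and 165 in EpiSC. mES replicate 3 alone stood 8.92-fold above the lowest mES array, and the log2 fold change of -1.40 ± 0.78 did not pass (limma adjusted p = 0.219).

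Actl6a (BAF53a), an actin-related subunit, had a log2 fold change of -0.45 ± 0.19 and Actl6b (BAF53b), its neuronal counterpart, one of -0.78 ± 0.35, with adjusted p-values of 0.117 and 0.139 in limma. The ARID subunits that distinguish SWI/SNF forms were Arid1a at 0.30 ± 0.17, Arid1b at 0.27 ± 0.18 and Arid2, the subunit of the PBAF form, at 0.53 ± 0.23, none past the threshold. The other Arid1b probe was called higher, with 872, 668 and 934 in mES cells, 1419, 1514 and 1513 in EpiSC and a log2 fold change of 0.86 ± 0.19 (limma adjusted p = 0.0201 over all probes).

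**Figure D2:**
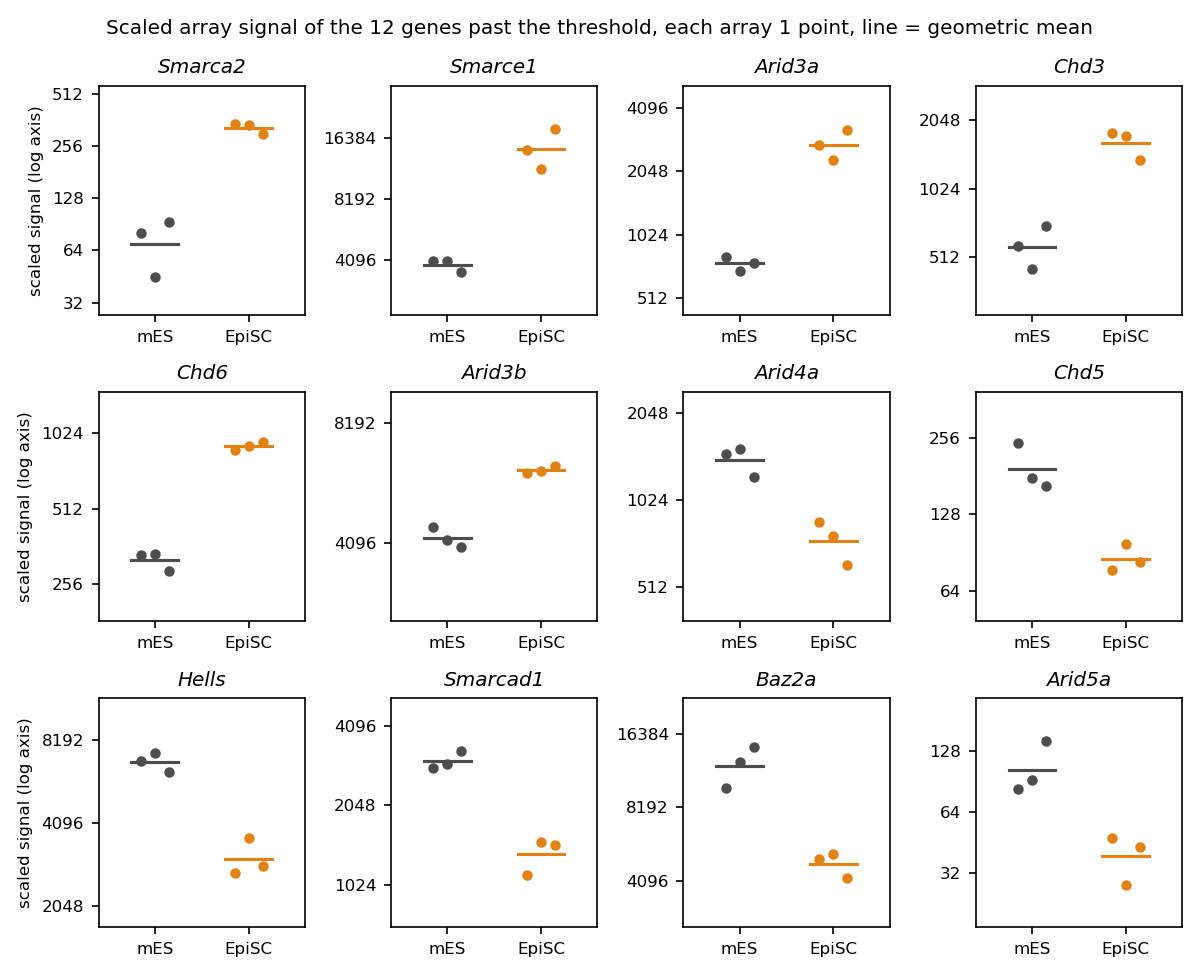
Scaled signal of the 12 called genes on each array (points, log axis), with the geometric mean of each group as a line. In every panel the 3 arrays of one group lie entirely above the 3 of the other, and the EpiSC arrays are higher for Smarca2, Smarce1, Arid3a, Chd3, Chd6 and Arid3b.

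Of 9 CHD genes, 2 were higher in EpiSC and 1 was lower, and the median log2 fold change was 0.19. Chd3, an ATPase of the NuRD deacetylase complex, gave 574, 455 and 699 in mES cells and 1807, 1753 and 1367 in EpiSC. The lowest EpiSC array was above the highest mES array, and the log2 fold change was 1.52 ± 0.22, or 2.87-fold (limma adjusted p = 0.00564). Chd6, of the subfamily that also holds Chd7, Chd8 and Chd9, gave 333, 338 and 288 against 878, 909 and 942. Its arrays hardly varied within a cell type, and the log2 fold change was 1.51 ± 0.16, or 2.85-fold (limma adjusted p = 0.00186).

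Chd5, the NuRD ATPase known from neurons and testis, moved the other way. Its signals were low, 244, 177 and 165 in mES cells and 76.9, 97.6 and 83.1 in EpiSC, and did not overlap, with a log2 fold change of -1.17 ± 0.21, or 2.25-fold lower (limma adjusted p = 0.0112). All 3 of its probes were called lower, from -1.73 to -1.17. On the 4 arrays that lay at position 4 of a slide, its log2 fold change was -1.26 and was not called (limma adjusted p = 0.054).

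Chd4, the main NuRD ATPase of ES cells, did not pass on its brightest probe, which gave 11806, 11356 and 9281 in mES cells and 14588, 12237 and 12968 in EpiSC, a log2 fold change of 0.30 ± 0.18 (limma adjusted p = 0.245). Every EpiSC array was the higher, and of the 2 other probes 1 was called, at 0.80 ± 0.19, and 1 stood at 0.05 ± 0.23. The 3 NuRD ATPases thus had 3 different results, Chd3 higher, Chd5 lower and Chd4 not called. The difference between these genes' changes was not tested.

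Chd7, whose human counterpart is mutated in CHARGE syndrome, gave 5687, 6383 and 3591 in mES cells and 7543, 9384 and 9623 in EpiSC. All EpiSC arrays were higher, but mES replicate 3 was low, and the log2 fold change of 0.80 ± 0.26 missed the threshold (limma adjusted p = 0.0658). It passed under 5 of 20 alternative settings, among them slide as a random block, where each slide held 1 cell type. It passed in 0 of the 6 fits that left out 1 array. With the EpiSC-7 arrays averaged, the limma adjusted p was 0.142. Chd1, which is needed for the open chromatin of ES cells, stood at 0.19 ± 0.22, and Chd1l, a remodeller recruited by poly(ADP-ribose), at -0.62 ± 0.19 with EpiSC below mES on every array (limma adjusted p = 0.0549). Chd8, a regulator of beta-catenin targets, and Chd9 stood at -0.38 ± 0.23 and -0.34 ± 0.28, and the groups of both overlapped.

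Among the 6 ISWI and BAZ genes, 1 was lower in EpiSC and 0 were higher (limma, also 0 higher at an unadjusted p under 0.05). Baz2a, the TIP5 subunit of the NoRC complex that silences ribosomal RNA genes, gave 9859, 12577 and 14460 in mES cells and 5003, 5272 and 4196 in EpiSC. The groups were clearly apart, with a log2 fold change of -1.34 ± 0.21, or 2.53-fold lower (limma adjusted p = 0.00653). All 5 entering probes of Baz2a were called lower, from -1.37 to -0.90, the most probes of 1 gene that were all called among the 40.

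The ISWI ATPases themselves did not pass. Smarca5 (SNF2H) gave 3459, 3746 and 3101 in mES cells and 2878, 2482 and 3217 in EpiSC, overlapping, with a log2 fold change of -0.27 ± 0.18, and Smarca1 (SNF2L) stood at 0.57 ± 0.29. Baz1a (ACF1) and Baz1b (WSTF), partners of Smarca5, stood at 0.34 ± 0.19 and 0.02 ± 0.24. Baz2b gave 180, 382 and 644 in mES cells against 683, 482 and 546 in EpiSC. Its mES arrays spread 3.57-fold and reached into the EpiSC range, and the log2 fold change of 0.67 ± 0.46 did not pass (limma adjusted p = 0.303).

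Of the 5 other SNF2 genes, 2 were lower in EpiSC and 0 were higher (limma, also 0 higher at an unadjusted p under 0.05). Hells (LSH), which is needed for DNA methylation of repeats, gave 6899, 7391 and 6304 in mES cells and 2703, 3611 and 2859 in EpiSC. No EpiSC array came near the mES arrays, and the log2 fold change was -1.18 ± 0.18, or 2.26-fold lower (limma adjusted p = 0.0067). Smarcad1, which acts in the upkeep of heterochromatin and in DNA end resection, gave 2849, 2934 and 3314 against 1115, 1482 and 1449. Its groups were as far apart, with a log2 fold change of -1.18 ± 0.19 (limma adjusted p = 0.00682), and its other probe gave -1.13 ± 0.18.

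The remaining genes of this kind did not pass. Smarcal1, a helicase that reanneals DNA at stalled replication forks, stood at 0.09 ± 0.22, and Hltf, a fork remodeller listed on the array under its old name Smarca3, at 0.43 ± 0.18 with EpiSC above mES on every array (limma adjusted p = 0.124). Atrx, which works with Daxx to place histone H3.3 at repeats, stood at -0.17 ± 0.19 on its brightest probe, which the array lists under a clone name. The probe listed as Atrx gave 177, 148 and 107 in mES cells against 88.3, 106 and 89.4 in EpiSC, without overlap but by a narrow margin, and a log2 fold change of -0.58 ± 0.23 (limma adjusted p = 0.109 over all probes).

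Of the 6 ARID genes outside SWI/SNF, 4 were called, 2 in each direction. Arid3a, known as Bright from its binding to the immunoglobulin heavy-chain locus, gave 808, 689 and 755 in mES cells and 2720, 2300 and 3197 in EpiSC. The separation was complete, with a log2 fold change of 1.86 ± 0.19, or 3.62-fold (limma adjusted p = 0.00169). Its paralog Arid3b gave 4485, 4171 and 3991 against 6140, 6209 and 6371, a smaller difference of 0.57 ± 0.15 (limma adjusted p = 0.0357). The Arid3b arrays of a group were close together and did not overlap with the other group, and all 3 of its probes were called, but the gene's call was lost whichever array was left out, with log2 fold changes of 0.53 to 0.61 and adjusted p-values of 0.0637 to 0.1. It was also lost when the EpiSC-7 arrays were averaged so that the line counted once (0.56, adjusted p = 0.0626), which left the other 11 called genes called.

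Arid5a, known from its binding to inflammatory mRNAs, gave low signals of 82.9, 92.2 and 143 in mES cells and 47.7, 28 and 42.7 in EpiSC. EpiSC lay below mES on every array, with a log2 fold change of -1.42 ± 0.30, or 2.68-fold lower (limma adjusted p = 0.0181). Without EpiSC replicate 3 it was -1.50 with an adjusted p of 0.0523. Arid4a, an RB-binding subunit of Sin3 corepressor complexes, gave 1471, 1539 and 1233 against 857, 768 and 611, again without overlap, with a log2 fold change of -0.93 ± 0.20 (limma adjusted p = 0.0184). Its call was lost when EpiSC replicate 3 was left out, with a log2 fold change of -0.79. Leaving out mES replicate 1 or 2 also ended the call, with -0.90 and -0.87, and limma adjusted p-values reached 0.0618. Arid4b, its paralog, stood at 0.20 ± 0.16.

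Arid5b, which acts in fat-cell formation together with the demethylase Phf2, was the gene whose probes differed most. Its brightest probe gave 19258, 17039 and 14186 in mES cells and 14957, 16773 and 9330 in EpiSC, overlapping, with a log2 fold change of -0.33 ± 0.27 (limma adjusted p = 0.385). Another probe gave 2924, 4579 and 9550 against 589, 410 and 759, a log2 fold change of -3.15 ± 0.46 (limma adjusted p = 0.00527 over all probes). The EpiSC arrays of that probe lay far below all mES arrays, and the mES arrays also differed among themselves. The array file ties this probe to a cDNA rather than to a RefSeq transcript, so which Arid5b transcripts it measures was not tested. A dim probe tied to a RefSeq transcript was also called lower, with 28.5, 38.2 and 38.7 against 19.5, 20.7 and 13.3. Its log2 fold change was -0.99 ± 0.24 (limma adjusted p = 0.0286 over all probes). The remaining entering probe stood at -0.78 ± 0.63 and was not called. With the mean of all probes, Arid5b was called lower, at -1.31 (limma adjusted p = 0.0213).

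Over single probes, 96 of the 105 entered and 34 were called, 17 higher and 17 lower, or 35.4% against 26.0% of all 29553 probes (11.8% higher and 14.3% lower). For 31 genes several probes entered, and 15 of these genes had no probe called, 5 had all of them called (Arid3b, Arid5a, Baz2a, Chd5 and Smarcad1), 11 had some called, and 0 had probes called in both directions. Those with some called included 6 whose brightest probe did not pass, namely Arid1b, Arid5b, Baz1a, Chd1, Chd4 and Chd7. Of the 6 entering Chd6 probes 3 were called, and their log2 fold changes ran from -0.17 to 1.76. Of 4 Chd3 probes 3 were called. The dimmest of them was not well above background on any mES array and gave 39.5, 33.2 and 39.5 in EpiSC, at least 2.16-fold higher against the lowest signal well above background. This probe entered only through its EpiSC arrays, so its place among the called probes is no independent support. A probe that the array lists under the clone name AI851716, and that RefSeq's table places with Smarcal1, gave 37.8, 28.6 and 57.7 in mES cells and 148, 121 and 142 in EpiSC, whereas the 2 probes listed as Smarcal1 stood at 0.09 ± 0.22 and 0.26 ± 0.22.

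**Figure D3:**
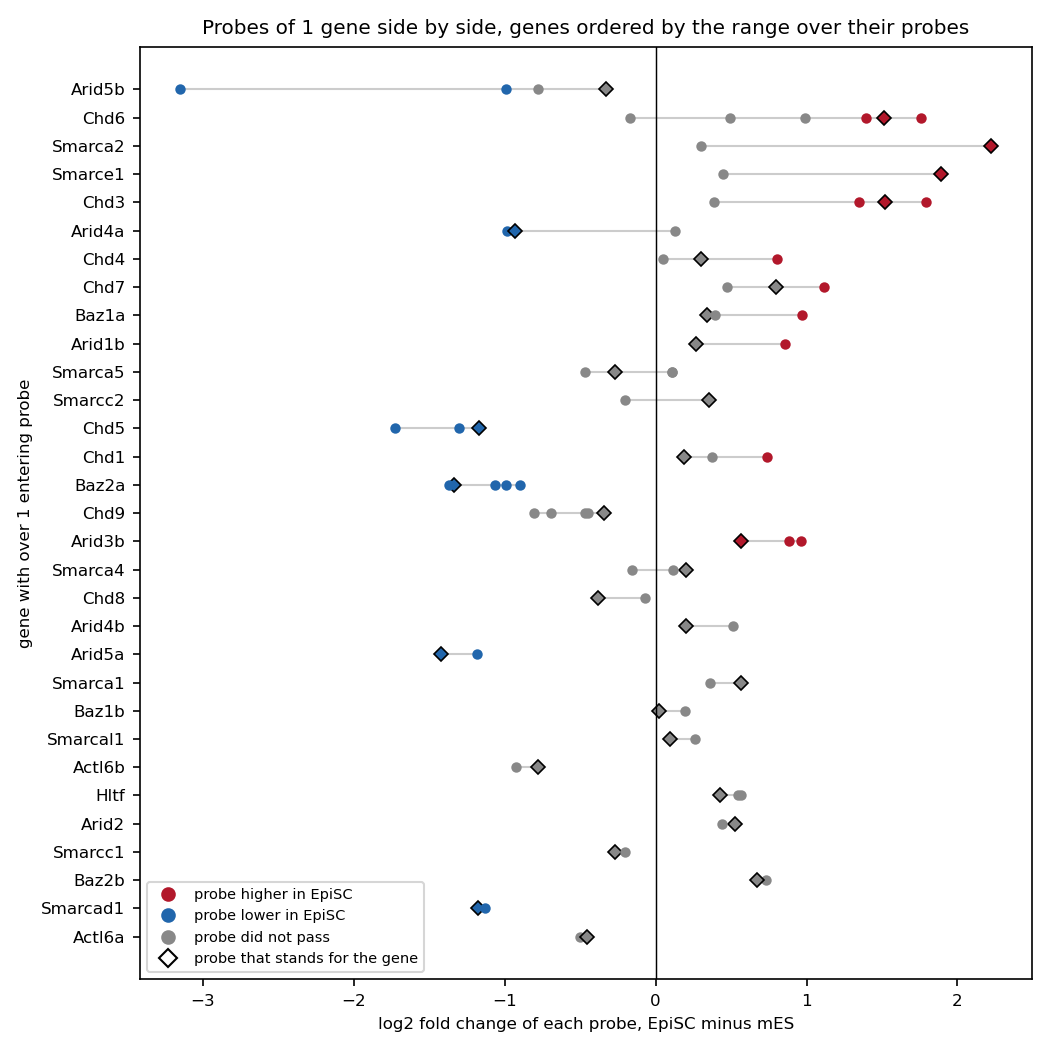
Log2 fold change of each entering probe, EpiSC minus mES, for the 31 genes with more than 1 (red higher, blue lower, grey not called, and a diamond for the probe that stands for the gene). Arid5b spans from -3.15 to -0.33 and Chd6 from -0.17 to 1.76, whereas the 5 Baz2a probes lie between -1.37 and -0.90.

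Within a cell type the remodeller genes varied little on the probes that stood for them, beside all genes and without matching for signal level. The median fold between the highest and lowest array was 1.29 among mES and 1.27 among EpiSC arrays, against 1.42 and 1.40 over all genes. Only 3 of the 40 genes spread over 2-fold among the mES arrays (Smarcd3, Baz2b and Smarca2, the last by 2.08-fold) and 1 among the EpiSC arrays (Actl6b, by 2.18-fold), or 7.5% and 2.5% against 23.1% and 17.9% of all genes. Other probes of these genes could vary more, as the Arid5b probe that ran from 2924 to 9550 over the mES arrays. Between EpiSC-7 at passages 20 and 25, the median size of the log2 difference was 0.18 over the 40 genes and 0.35 over all genes. The largest of the 40 was Arid5b, with 16773 at passage 20 and 9330 at passage 25.

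Feeder markers differed between the arrays of each group, so the called genes were refitted on the 4 arrays without mES replicate 2 and EpiSC replicate 3, the arrays lowest in these markers. Of all genes, 7.5% were then called. Smarca2, Smarce1, Arid3a, Chd3 and Chd6 were still called, with log2 fold changes of 1.97, 1.75, 1.68, 1.49 and 1.53 and limma adjusted p-values of 0.0196 to 0.0374. The 6 lower genes and Arid3b were not. Their log2 fold changes stayed near those on 6 arrays, at -1.21 for Chd5, -1.22 for Baz2a, -1.08 for Hells, -1.26 for Smarcad1, -1.58 for Arid5a, -0.73 for Arid4a and 0.55 for Arid3b, with limma adjusted p-values of 0.0636 to 0.213. All 6 lower genes had an unadjusted p under 0.05 in that fit. The arrays richer in feeder markers were kept, so that fit cannot show the differences without feeder RNA. Between the 2 arrays left out (EpiSC minus mES) the log2 difference was 2.74 for Smarca2, 2.16 for Smarce1 and 2.21 for Arid3a. It was 1.59 for Chd3, 1.48 for Chd6 and 0.61 for Arid3b. For the lower genes it was -1.09 (Chd5), -1.58 (Baz2a), -1.37 (Hells), -1.02 (Smarcad1), -1.11 (Arid5a) and -1.33 (Arid4a). The part of feeder RNA in the signals of the remodeller genes was not tested.

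**Figure D4:**
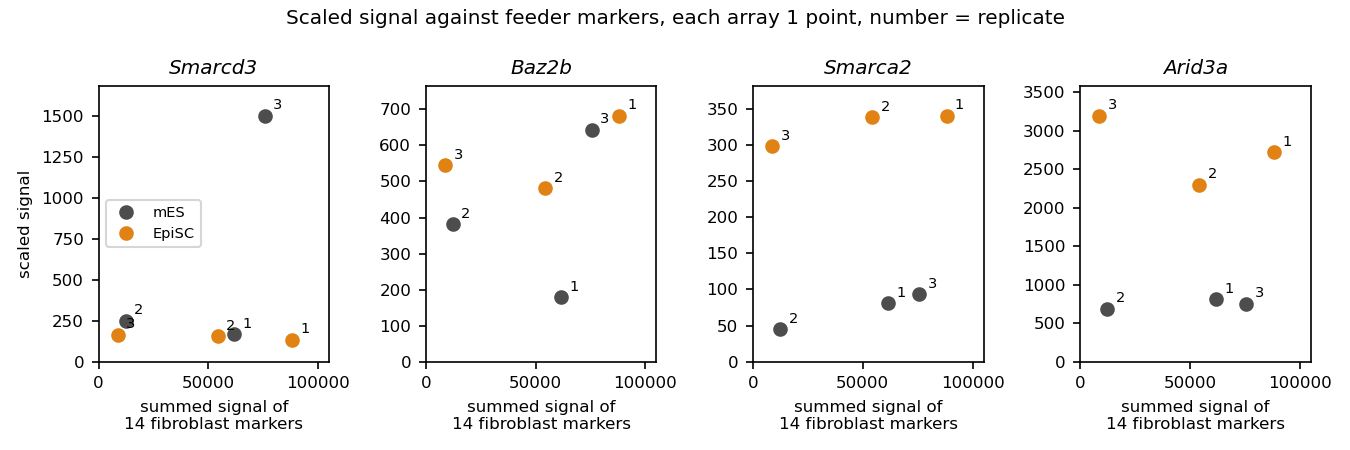
Scaled signal of 4 genes (vertical axis) against the summed scaled signal of 14 fibroblast markers (horizontal axis) on each array, numbered by replicate. Smarca2 and Arid3a are higher on every EpiSC array (sums of 8725 to 88147) than on any mES array (12313 to 75654). Where the sum is lowest within a cell type, Smarca2 is also lowest, at 44.9 in mES cells and 299 in EpiSC. Arid3a is lowest there in mES cells (689) but highest there in EpiSC (3197). Smarcd3 is high on 1 mES array at 1503, and Baz2b overlaps between the groups. The part of feeder RNA was not tested.

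Related genes, called partners here, were taken from a list of 63, of which 60 were tested. The list held other subunits of SWI/SNF, NuRD and ISWI complexes and subunits of the INO80 and SRCAP complexes. It also held JARID genes, Daxx and further SNF2 proteins that are not subunits of these complexes. Of the 60 tested, 2 were higher and 9 lower in EpiSC, or 18.3% called against 26.6% of all genes. Their median log2 fold change was -0.23. The 12 tested NuRD partners of Chd3, Chd4 and Chd5 held 5 of the 11, or 41.7% called against 26.6% of all genes. Mta1 gave 4752, 5013 and 4367 in mES cells and 7444, 10202 and 8062 in EpiSC (0.85 ± 0.19, limma adjusted p = 0.0196), and Mta3 gave 15927, 14801 and 16001 against 6447, 5941 and 6549 (-1.30 ± 0.15, limma adjusted p = 0.00265). Neither gene's groups overlapped. The NuRD subunit Cdk2ap1 was also higher (0.89), and the deacetylase Hdac1 (-0.78) and the histone-binding Rbbp4 (-0.81) were lower. The Rbbp4 call was lost whichever array was left out (-0.91 to -0.64, limma adjusted p up to 0.12), and those of Hdac1 (-0.86 to -0.75, up to 0.0562) and Mta1 (0.72 to 0.95, up to 0.0582) in 3 of 6 such fits each. Of the 11 called partners, 3 (Mta3, Cdk2ap1 and Kdm5b) were called in all 6 of these fits, and Mta3 alone without the 2 arrays lowest in fibroblast markers.

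Of 13 SWI/SNF partners only Dpf3, a PHD-finger subunit, was called, with 218, 114 and 118 in mES cells and 58.4, 64 and 43.6 in EpiSC (-1.39 ± 0.31, limma adjusted p = 0.0205), and its call was lost without EpiSC replicate 1 or 3 (adjusted p up to 0.0718). Of 9 further SNF2 proteins and Atrx partners, Rad54l, a recombination ATPase, was lower (-1.03), and so was Daxx, the histone chaperone that acts with Atrx (-0.81), while Atrx itself was not called. Leaving out 1 array ended the Rad54l call in 3 of 6 fits (-1.21 to -0.88, limma adjusted p up to 0.0671) and the Daxx call without EpiSC replicate 1 (adjusted p = 0.0526). Of 5 ISWI partners 0 were called (limma, with 1 higher at an unadjusted p under 0.05). Among 5 JARID genes, demethylases and a cofactor that also carry an ARID domain, Kdm5b was lower (-0.92).

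Ino80, Ino80b, Ino80c, Ino80e and Chd2 are listed on the array under older names and so did not meet the naming rule. Ino80, the ATPase of the INO80 complex (listed as Inoc1), gave 3424, 3623 and 2873 in mES cells and 1466, 1515 and 1957 in EpiSC. It was lower in EpiSC without overlap, with a log2 fold change of -1.01 ± 0.19 (limma adjusted p = 0.0131). The call was lost without EpiSC replicate 1 (limma adjusted p = 0.0501) and, at -1.07, without the arrays lowest in fibroblast markers (adjusted p = 0.0691). Its complex partner Ino80e (listed as Ccdc95) was also lower, with 20754, 22026 and 17503 against 6402, 10497 and 6172 and a log2 fold change of -1.42 ± 0.25 (limma adjusted p = 0.0104), and it stood at -1.22 without the arrays lowest in fibroblast markers (adjusted p = 0.0995). Ino80b and Ino80c stood at -0.29 ± 0.20 and 0.62 ± 0.27 and did not pass. Of 16 other INO80 and SRCAP partners, 2 were lower, the helicase Ruvbl2 (-0.78) and Znhit1 (-0.70), and 0 were higher (limma, also 0 at an unadjusted p under 0.05). Leaving out 1 array ended the Ruvbl2 call in 4 of 6 fits (-0.87 to -0.72, adjusted p up to 0.0703) and the Znhit1 call in 5 of 6 (-0.82 to -0.64, adjusted p up to 0.103). Chd2, the close relative of Chd1, stood at -0.36 ± 0.25.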

How the data were processed

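Per the labels' protocols, TRIzol RNA was labelled with Cy3 for 1-colour Agilent arrays. The deposited scanner files hold linear spot intensity. Per the file headers, the authors made it with Feature Extraction 9.1.3.1, detrending the signal but subtracting no local background. The series' value table is also intensity deposited by the authors. It differed from the processed signal by at most 0.00716 on the log2 scale, so it is that signal rounded, linear, uncentred and with no ratio. The medians of its columns were 78.9, 84.9 and 68.7 in mES cells and 117, 80.25 and 82.95 in EpiSC, by replicate. The sources used here give no genome build for the probes.

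Control spots and outlier spots (12 to 24 an array) were left out, the log2 processed signal was scaled to each array's 75th percentile, and spots of 1 probe were averaged. Of the probes, 22951 (55.7%) were named through RefSeq accessions (GRCm38.p6) and 3109 through a synonym, and 15114 kept the file's name, which can be old. Of the 105 remodeller probes, 66 were named through an accession. Entering probes had to be well above background on all arrays of at least 1 cell type, with no more than 1 missing value in either, and the brightest entering probe stood for a gene. The comparison used limma 3.58.1 in R 4.3.3 (lmFit, eBayes, no covariate, two-sided, Benjamini-Hochberg over 19977 genes), and the procedure was tested on simulated data. The number of arrays limits the precision, since 4 residual degrees of freedom remained. Groups follow the labels, and replicate numbers follow sample order. The remodeller genes, roles, partner and marker lists were chosen with earlier results of these data known. Every remodeller gene is named, with up to 3 called partners in each direction for each list. Alternatives were other scalings, background corrections, filters, blocks and probe choices, and leaving out arrays.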

Additional observations from a re-analysis of the deposited data

How the results depend on the processing

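Of the 12 called genes, 5 (Smarca2, Smarce1, Arid3a, Chd3 and Chd6) were called under all 20 alternatives and 9 under all 6 that leave out 1 array, and no called gene changed direction. Leaving out 1 array gave 5 higher and 4 to 6 lower remodeller genes, 10 to 15 higher and 12 to 20 lower probes, 1 to 2 higher and 2 to 8 lower partners, and 1301 to 2033 higher and 1560 to 2776 lower genes in all, the partners being fewest (2 lower) without EpiSC replicate 1. With the EpiSC-7 arrays averaged, 11 of the 12 genes (all but Arid3b) and 9 of the 11 partners (all but Rbbp4, adjusted p = 0.0629, and Znhit1, 0.073, by limma) were called. With the 4 arrays at position 4, 3 remodeller genes were lower, 9 probes higher and 10 lower, 0 partners higher (3 at an unadjusted p under 0.05 in limma) and 1 lower, and 1159 genes higher and 1464 lower. Without the arrays lowest in fibroblast markers, 0 remodeller genes were lower (6 at an unadjusted p under 0.05), 8 probes higher and 1 lower, 0 partners higher (3 unadjusted) and 1 lower, and 813 genes higher and 722 lower. Both of these fits use fewer arrays. With slide as a random block, 12 remodeller genes were higher and 10 lower, 34 probes higher and 28 lower, 8 partners higher and 18 lower, and 4650 genes higher and 6737 lower, at a fitted correlation of -0.677, and each slide held 1 cell type. Normexp correction gave 4 higher partners, and no filter on dim probes gave 6091 lower genes, over more genes tested. Directions turned for 6 uncalled genes near 0. At position 4 these were Baz1b (-0.0786), Chd1 (-0.00793) and Smarcd1 (-0.13), with normexp Smarca4 (-0.11), and without the fibroblast-low arrays Smarcb1 (-0.011). Leaving out 1 array gave -0.17 to 0.18 for Baz1b, -0.00801 to 0.72 for Chd1, where another probe became the brightest, -0.042 to 0.25 for Smarcal1 and -0.069 to 0.12 for Smarcd1. Other causes were not tested. No paired analysis was possible because the labels name different lines for mES cells and EpiSC and give no pairs. Low signals limit Chd5, Arid5a and Actl6b, whose highest scaled signals were 244, 143 and 110. They also limit the size of the Smarca2 difference, since its mES signals were 80.9, 44.9 and 93.2, though well above background on all 3 arrays.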
